A study of Mus musculus with 6 samples.

Results

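The interferon-response tumor nuclei were 648 of the 8149 tumor nuclei (7.95%) in single-nucleus RNA sequencing of TC1 tumors, and 3.43% of all 18865 barcodes. They were chosen by their counts of 7 interferon-induced messengers, Ifit1, Ifit3, Ifit3b, Rsad2, Oasl1, Ifih1 and Cxcl10. A nucleus was first kept with 100 to 7500 detected genes, under 20% mitochondrial counts and at least 1500 unique molecular identifiers (UMIs, the counted molecules). It was taken as a tumor nucleus when Hmga2, Mecom and Slit2 together made up at least 0.5% of its UMIs and the macrophage genes Adgre1, Cadm1, Csf1r, Cd84 and Mrc1 together had under 3 counts. In each library the 8% of tumor nuclei with the highest share of UMIs from the 7 markers, and with at least 2 marker counts, were the interferon-response nuclei. This gave 132, 111 and 57 nuclei in MCT2 CO replicates 1, 2 and 3 and 189, 102 and 57 in MCT2 KO replicates 1, 2 and 3, beside 7501 other tumor nuclei.

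The libraries came from mice with both Slc16a7 (MCT2) alleles floxed that also carried a tamoxifen-inducible Cre (MCT2loxP/loxP; Cre+, from mCre-Tg mice), on a C57BL/6 background. At 8 weeks of age the KO mice received tamoxifen and the CO mice vehicle on 5 days, 2 days later TC1 cells were injected under the skin of the flank, and tumors were taken after 24 days, 3 libraries per group. TC1 is a line of transformed mouse lung epithelial cells. CO and KO mice shared genotype and differed by tamoxifen, so the drug and the deletion cannot be told apart. The authors describe the deletion as systemic in the host and not aimed at the implanted cells. The promoter driving Cre is not given in the sources used here, nor is it stated that a library held more than 1 tumor. The labels give the tissue as lung, whereas 11 lung epithelial markers summed to 1.70 to 13.2 unscaled CPM (their counts per 1000000 UMIs of these nuclei) in the interferon-response nuclei.

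Type I interferons are small secreted proteins that cells release when they sense viral or misplaced nucleic acid. They bind a receptor made of Ifnar1 and Ifnar2, whose kinases Jak1 and Tyk2 pass the signal on. Stat2 and Irf9 then take part in a complex that binds the interferon-stimulated response element (ISRE) near the start of many genes. Interferon gamma uses another receptor, and its signal reaches genes through the gamma-activated site (GAS). Among the markers, Ifit proteins bind foreign RNA, Rsad2 (viperin) makes a chain-terminating nucleotide, Oasl1 belongs to the oligoadenylate synthetase family, Ifih1 (MDA5) senses long double-stranded RNA and Cxcl10 attracts T cells.

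The promoters of the markers and of genes that rose with them are printed here because they carry this element. Each line gives the 250 bases before the RefSeq start of transcription in mouse build GRCm38.p6, 5′ to 3′ on the strand of the gene, with matches to the ISRE letters in capitals. These were taken as GAAA, 2 bases of any kind and GAAA again, or on the other strand TTTC, 2 bases of any kind and TTTC. Ifit3 (chr19:34583279-34583528, plus strand) and its near copy Ifit3b (chr19:34607707-34607956, plus strand) hold the same pair of elements at the same spacing. Rsad2 (chr12:26456453-26456702, minus strand) and Cxcl10 (chr5:92348890-92349139, minus strand) are the other markers shown. Gbp7 (chr3:142530086-142530335, plus strand), Oas1a (chr5:120907526-120907775, minus strand) and Stat2 (chr10:128270248-128270497, plus strand) took no part in the selection. In Oas1a a pair of matches overlap.
Ifit3: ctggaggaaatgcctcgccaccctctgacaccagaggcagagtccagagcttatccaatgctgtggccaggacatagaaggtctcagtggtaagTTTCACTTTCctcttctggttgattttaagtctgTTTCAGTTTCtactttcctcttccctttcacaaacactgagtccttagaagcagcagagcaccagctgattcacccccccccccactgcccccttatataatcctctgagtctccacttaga
Ifit3b: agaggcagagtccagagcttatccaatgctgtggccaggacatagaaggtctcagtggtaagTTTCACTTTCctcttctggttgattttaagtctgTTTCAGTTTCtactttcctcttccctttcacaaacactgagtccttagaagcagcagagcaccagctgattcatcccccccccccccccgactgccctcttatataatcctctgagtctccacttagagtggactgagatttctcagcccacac
Rsad2: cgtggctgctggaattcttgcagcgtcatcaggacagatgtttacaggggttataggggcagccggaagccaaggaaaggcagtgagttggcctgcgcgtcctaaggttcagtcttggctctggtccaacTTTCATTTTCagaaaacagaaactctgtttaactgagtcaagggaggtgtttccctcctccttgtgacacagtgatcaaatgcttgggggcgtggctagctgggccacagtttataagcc
Cxcl10: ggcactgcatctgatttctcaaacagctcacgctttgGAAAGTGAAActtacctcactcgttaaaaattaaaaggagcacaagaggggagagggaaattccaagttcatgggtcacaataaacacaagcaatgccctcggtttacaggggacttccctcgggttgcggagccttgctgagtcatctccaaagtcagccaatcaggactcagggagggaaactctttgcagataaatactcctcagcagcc
Gbp7: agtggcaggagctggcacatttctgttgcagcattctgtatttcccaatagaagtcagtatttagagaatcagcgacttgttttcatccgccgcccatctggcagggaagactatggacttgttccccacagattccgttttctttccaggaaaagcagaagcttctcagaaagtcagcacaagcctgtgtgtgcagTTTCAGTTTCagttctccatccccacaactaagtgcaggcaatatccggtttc
Oas1a: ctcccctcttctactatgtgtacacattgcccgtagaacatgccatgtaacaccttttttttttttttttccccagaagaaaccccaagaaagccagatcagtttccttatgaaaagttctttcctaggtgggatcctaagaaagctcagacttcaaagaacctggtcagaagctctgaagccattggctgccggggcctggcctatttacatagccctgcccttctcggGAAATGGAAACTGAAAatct
Stat2: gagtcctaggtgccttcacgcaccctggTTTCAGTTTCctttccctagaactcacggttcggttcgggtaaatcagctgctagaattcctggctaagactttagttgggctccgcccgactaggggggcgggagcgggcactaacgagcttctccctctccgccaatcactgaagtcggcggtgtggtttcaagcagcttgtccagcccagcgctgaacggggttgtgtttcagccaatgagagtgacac

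In windows from 250 bases before to 50 bases after the RefSeq start, on either strand, the ISRE letters stood in 6 of the 7 markers (85.7%), all but Oasl1. Of the 277 genes other than the markers that were called higher in the interferon-response nuclei, a comparison described further on, 203 had a window and 58 of these (28.6%) held the letters. The share was 52.1% (37 of 71) for those on the interferon gene lists and 15.9% (21 of 132) for those on none of them. Among all 8995 tested genes with a window it was 3.89%, among the tested genes that were not called 3.26%, and among all 27025 genes with a window 3.99%. None of the 16 genes with a window that were called lower held it. The GAS letters, taken as TTC, 3 bases of any kind and GAA, which read the same on both strands, stood in none of the 7 markers, in 13.8% of the other genes called higher and in 7.92% of all tested genes. Cmpk2 and Oasl2, described below, held no ISRE match in this window. A match is a description of the letters and not a binding site.

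The selection was by rank, so its edge lay at another level in each library. In CO replicates 1, 2 and 3 the lowest nucleus chosen had 26.9, 30.1 and 13.3 marker counts per 10000 UMIs and the highest nucleus left out had 26.7, 29.8 and 12.99. In KO replicates 1, 2 and 3 the lowest chosen had 25.3, 21.4 and 22.4 and the highest left out had 25.2, 21.3 and 22.3. CO replicate 3 therefore had the lowest edge, and no gap separated the nuclei on the 2 sides of it in any library. The median other tumor nucleus had between 0.900 and 3.13 marker counts per 10000 UMIs. The interferon-response nuclei carried at least 4 of the 7 markers in 541 of 648 cases (83.5%) and all 7 in 153 (23.6%). Among the other tumor nuclei 830 of 7501 (11.1%) carried at least 4, 33 (0.440%) carried all 7 and 1985 (26.5%) carried none.

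Depth differed between the populations in no single direction. Among CO libraries the median interferon-response nucleus held 5442, 5370 and 4890 UMIs and the median other tumor nucleus 5847, 5961 and 5328. Among KO libraries these were 4074, 8569.5 and 8992 UMIs against 4313, 7909 and 7506. It was the shallower population in 4 libraries and the deeper in KO replicates 2 and 3 (mean log2 ratio −0.014, p = 0.875, exact sign-flip permutation test over 6 libraries, two-sided, smallest possible p 0.03125). Whole libraries held between 13252572 and 22057084 UMIs. Median mitochondrial shares lay between 3.85% and 9.24% in the interferon-response nuclei and between 4.70% and 9.83% in the other tumor nuclei, and in both they were lowest in CO replicate 3 and KO replicates 2 and 3. The 5 macrophage genes of the rule summed to 14.2 to 30.3 unscaled CPM in the interferon-response nuclei, 14.0 to 40.5 in the other tumor nuclei and 2965 to 4261 in macrophage nuclei. Libraries shared 19 to 25 barcodes per pair, and 2 interferon-response nuclei had a barcode found in more than 1 library.

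The marker levels are fixed by the selection and are given as a description. Counts summed per library and population were also scaled with the trimmed-mean factors (TMM) of edgeR, and values given as CPM below are on that scale, listed for replicates 1, 2 and 3 of a group. Rsad2 (chr12:26442746-26456452) was at 662, 659 and 423 CPM in the interferon-response nuclei of CO and at 450.2, 911 and 569 CPM in those of KO. The other tumor nuclei had 23.5, 31.2 and 8.56 (CO) and 22.2, 27.3 and 37.5 CPM (KO), a log2 difference of 4.62 and the widest of the 7 markers. Ifih1 (chr2:62595798-62646255) had the narrowest, 2.89, and Ifit3b, Ifit1, Oasl1, Cxcl10 and Ifit3 lay between at 4.28, 3.95, 3.91, 3.77 and 3.63. The markers were chosen with earlier results of these data known, so a rise of each beside the others was built in, and the next values are also a description. The selection was repeated without each marker in turn. The mean log2 difference was then 4.23 for Rsad2, 4.14 for Ifit3b, 3.73 for Ifit1, 3.59 for Oasl1, 3.41 for Ifit3, 3.30 for Cxcl10 and 2.54 for Ifih1, and between 81.0% and 100% of the nuclei chosen were the same. For Ifit3 and Ifit3b the near-identical copy stayed in the selection, so their values were not free of reads that the pair could share.

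**Figure D1:**
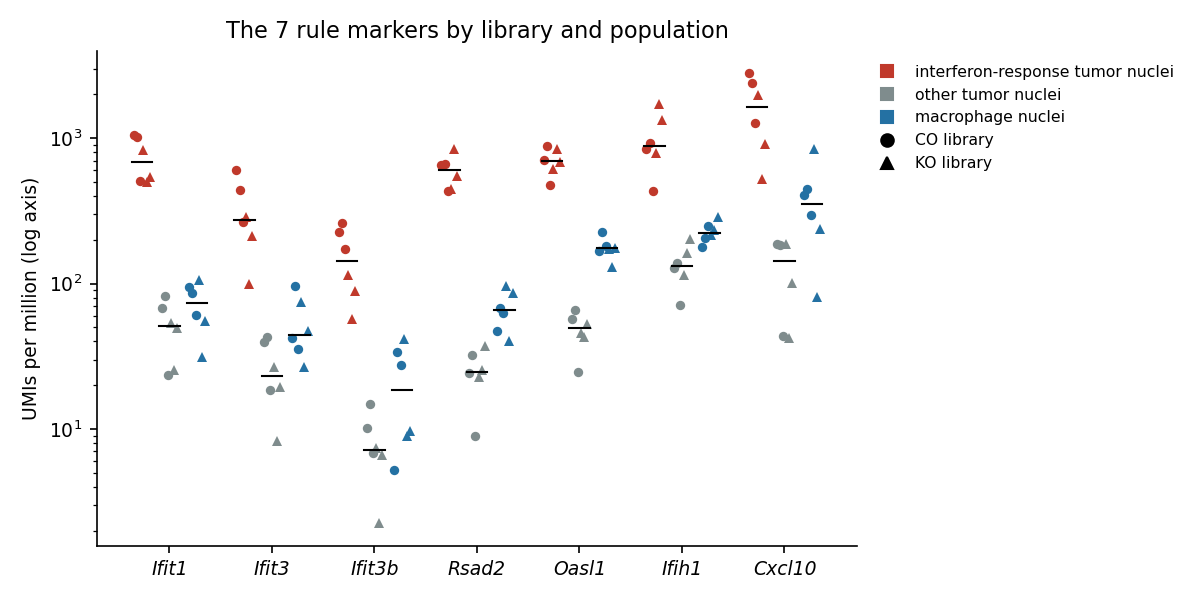
unscaled CPM (log axis) of the 7 marker genes in the interferon-response nuclei and the other tumor nuclei, 1 point per library. In all 7 genes the 6 points of the interferon-response nuclei lie above those of the other tumor nuclei, which the selection fixes, and Rsad2 has the widest gap (log2 difference 4.62).

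The markers did not contribute alike in every library. Of the marker counts of the interferon-response nuclei, Cxcl10 gave 40.7%, 36.2% and 35.9% in the CO replicates, and its shares in KO were 39.1%, 11.5% and 21.2%. Ifih1 gave 12.2%, 14.1% and 12.2% in CO and 15.7%, 37.5% and 30.7% in KO. In these nuclei KO replicates 2 and 3 thus stood apart, with less Cxcl10 and more Ifih1, while KO replicate 1 was like the CO libraries. The other tumor nuclei of CO replicate 3 also had less Cxcl10 (22.1%) and more Ifih1 (36.1%) than those of CO replicate 1 (36.3% and 24.8%). Those of KO replicate 3 had 21.5% and 43.2%. Ifit3 and Ifit3b are near-identical neighbors, and how reads that match both were counted is not stated in the sources used here. Cxcl10 (chr5:92346638-92348889) lies inside Art3 on the other strand, and Oasl1 (chr5:114923240-114937915) overlaps Gm13822 on the other strand. Whether counting used strand is not stated in the sources used here, and whether it kept reads of these pairs apart was not checked.

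The main comparison asked which other genes differed between the interferon-response nuclei and the other tumor nuclei of the same library. Summed counts were tested with the edgeR quasi-likelihood test with library as a block, and a gene was called at a Benjamini-Hochberg adjusted p of at most 0.05 and a log2 fold change of at least 0.58 in size. The markers aside, 277 genes were called higher and 22 lower. With the markers these were 306 of 11268 tested genes (2.72%), 284 higher (2.52%) and 22 lower (0.195%). The median log2 fold change of all tested genes was −0.02. In 6 of 6 libraries 609 genes (5.4%) were higher and 564 (5.01%) lower, and for 148 genes (1.31%), the 7 markers among them, the ranges of the populations did not overlap. At least 154 of the tested genes passed the filter on low counts only through the interferon-response nuclei, where they are high. A difference was thus built into their being tested. Among genes named below these include Gbp5, Tnfsf10, Nr3c2, Oas3, Ifit1bl1 and Cdh5. The 154 are a lower bound, because genes over the limit in most but not all other tumor sums, Cmpk2 among them, were left out. The p-values measure how far the difference within a library varied over the 6 libraries. The genes were measured in the same nuclei as the markers, so the calls show what went with the markers across nuclei. Sizes of rises and falls below are log2 fold changes, ± SE where an error is given.

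Most tested sensors of nucleic acid were higher. Of 22 genes on the list 21 were measured and 18 tested, and 11 were called higher and none lower, with a median log2 fold change of 1.22. Zbp1, which senses Z-form nucleic acid, was at 101, 95.3 and 43.2 CPM in the interferon-response nuclei of CO and 57.7, 51.2 and 60.9 CPM in those of KO, against 26.4, 23.2 and 15.1 (CO) and 13.6, 11.7 and 17.4 (KO) CPM in the other tumor nuclei. The populations did not overlap (log2 fold change 1.96 ± 0.11, adjusted p 7.59e-14). Ddx58 (RIG-I), the sensor of short double-stranded RNA, had 234 ± 31.9 CPM against 105 ± 8.58 CPM (SD, n = 6 libraries, log2 fold change 1.14 ± 0.07). Dhx58 (LGP2), its relative that works with Ifih1, rose by 1.59, Tlr3, the endosomal receptor for double-stranded RNA, by 0.93 and Trim25, which activates RIG-I, by 1.31 on the log2 scale. The other 6 called higher were members of the Ifi200 family of nucleic acid binding proteins, from 1.29 for Ifi209 to 1.86 for Ifi203. Mavs, Cgas, Tmem173 (Sting), Adar, Aim2, Dhx9 and Dhx36 were not called, and Tlr7, Tlr8 and Tlr9 had too few counts to test.

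Some transcription factors of the signaling list rose, and the type I receptor chains and their kinases were not called. Stat2 was at 256, 247 and 365 CPM in CO and 262, 319 and 290.4 CPM in KO, against 104, 95.2 and 110.0 (CO) and 77.9, 91.9 and 121 (KO) CPM in the other tumor nuclei. Every interferon-response value lay above every other value (log2 fold change 1.54 ± 0.07, adjusted p 6.14e-16). Irf7, Irf1 and Irf9 rose by 1.29, 1.20 and 0.75. The factors Stat3, Irf2, Irf3 and Irf5 were tested and not called, with 0.20, 0.41, 0.26 and 0.75. The receptor chains had log2 fold changes of 0.02 ± 0.13 for Ifnar1 (adjusted p 0.968) and −0.13 ± 0.15 for Ifnar2 (adjusted p 0.746), and the kinases of −0.02 ± 0.07 for Jak1 and 0.15 ± 0.11 for Tyk2. In all 5 of the 22 tested signaling genes were called, with a list median of 0.18. Of 14 tested negative regulators Usp18, which removes Isg15 from proteins and blocks the receptor, rose by 1.63 ± 0.09, and Socs2 rose by 0.98 ± 0.13, with a list median of 0.10.

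No transcript of an interferon was counted in the interferon-response nuclei, for any of the 21 ligand genes measured. In all kept nuclei of the 6 libraries Ifnb1 had 5 counts, 4 of them in other tumor nuclei, Ifng had 24, Ifnz 19, Ifne 12, Ifnk 9 and Ifna2 1. None had enough counts to test, so differences between populations were not detectable at this depth.

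Antiviral effectors were the longest list, and 58 of its 69 tested genes were called higher and none lower, with a median log2 fold change of 1.20. Of its 78 genes 75 were measured, and at least 3 tested genes passed the filter only through the interferon-response nuclei. For 41 of the 69 the populations did not overlap. Among all tested genes 2.52% were called higher and 1.31% did not overlap. Cmpk2 (chr12:26469204-26479837), the mitochondrial nucleotide kinase that neighbors Rsad2, was at 59.5, 25.9 and 41.0 CPM in CO and 34.6, 81.1 and 59.1 CPM in KO. In the other tumor nuclei it had 2.95, 3.24 and 1.64 (CO) and 3.46, 4.68 and 6.74 (KO) CPM, so the populations were wide apart (log2 fold change 3.72 ± 0.21, adjusted p 2.95e-14). In CO replicates 1 and 3 this level lay under the low-count limit, so Cmpk2 was tested through its level in the interferon-response nuclei. It was counted in 19.3% of the interferon-response nuclei and 2.65% of the others.

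Oasl2, another member of the oligoadenylate synthetase family, had 664 ± 78.7 CPM against 119 ± 21.9 CPM (SD, n = 6, log2 fold change 2.49 ± 0.07, adjusted p 5.62e-22), the smallest adjusted p outside the markers. Among the synthetases themselves, which make a second messenger on binding double-stranded RNA, Oas3, Oas1a and Oas1g rose by 2.23, 2.09 and 2.00, and Oas2 and Oas1c by 1.58 and 0.89. Ddx60, a helicase of antiviral defense, was at 367, 334 and 330.4 CPM in CO and 477, 1069 and 861 CPM in KO, against 82.4, 82.4 and 69.8 (CO) and 90.5, 180.3 and 221 (KO) CPM, with no overlap. Ifi44, Samd9l, Herc6 and Rtp4 rose by 2.23, 1.74, 1.71 and 1.43. Isg15, the ubiquitin-like protein that Herc6 attaches to targets, was at 909, 578 and 274 CPM in CO and 464, 184 and 268 CPM in KO, against 214, 194 and 76.3 (CO) and 157, 37.4 and 87.9 (KO) CPM. It was higher in 6 of 6 libraries (log2 fold change 1.81 ± 0.08), but the interferon-response nuclei of KO replicate 2 lay below the other tumor nuclei of CO replicates 1 and 2, so the ranges overlapped.

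Smaller rises were measured for Eif2ak2 (PKR, 1.02), which halts translation on double-stranded RNA, Zc3hav1 (ZAP, 1.06), which binds CpG-rich viral RNA, Samhd1 (1.09), which depletes nucleotides, and Bst2 (tetherin, 0.84), which holds virions at the membrane. Among the 11 tested effectors that were not called were Isg20, Ifitm1, Ifitm3, Ifi27, Ifi27l2a, Slfn2, Slfn9, Lgals3bp, Tor1aip1 and Ms4a4c. Mx1, Mx2 and Oas1b were not analysed here. Ifit1bl1 (log2 fold change 3.02) and Slfn5 (1.41) were called, but 53.2% and 26.5% of their counts in interferon-response nuclei came from 1 nucleus. Over the 277 genes the median share of counts in the highest nucleus was 3.43%, and in 7 genes it exceeded 25%.

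All 10 tested guanylate-binding proteins (GBP) and immunity-related GTPases (IRG), which attack the vacuoles of intracellular pathogens, were called higher, with a median log2 fold change of 1.98. Another 8 measured genes of this list of 20 had too few counts to test. At least 2 of the 10, Gbp5 and Gvin1, passed the filter only through the interferon-response nuclei. Gbp5 was at 68.3, 30.6 and 66.9 CPM in CO and 22.04, 55.5 and 17.4 CPM in KO, against 3.73, 2.95 and 2.73 (CO) and 1.69, 1.59 and 17.0 (KO) CPM in the other tumor nuclei. The populations were separate. They were closest in KO replicate 3 (log2 fold change 3.504 ± 0.36). Gbp2, Iigp1, Gbp7, Gbp3 and Irgm1 rose by 2.36, 2.21, 2.00, 1.95 and 1.46. These families hold near-identical copies, so counts of single members are uncertain.

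**Figure D2:**
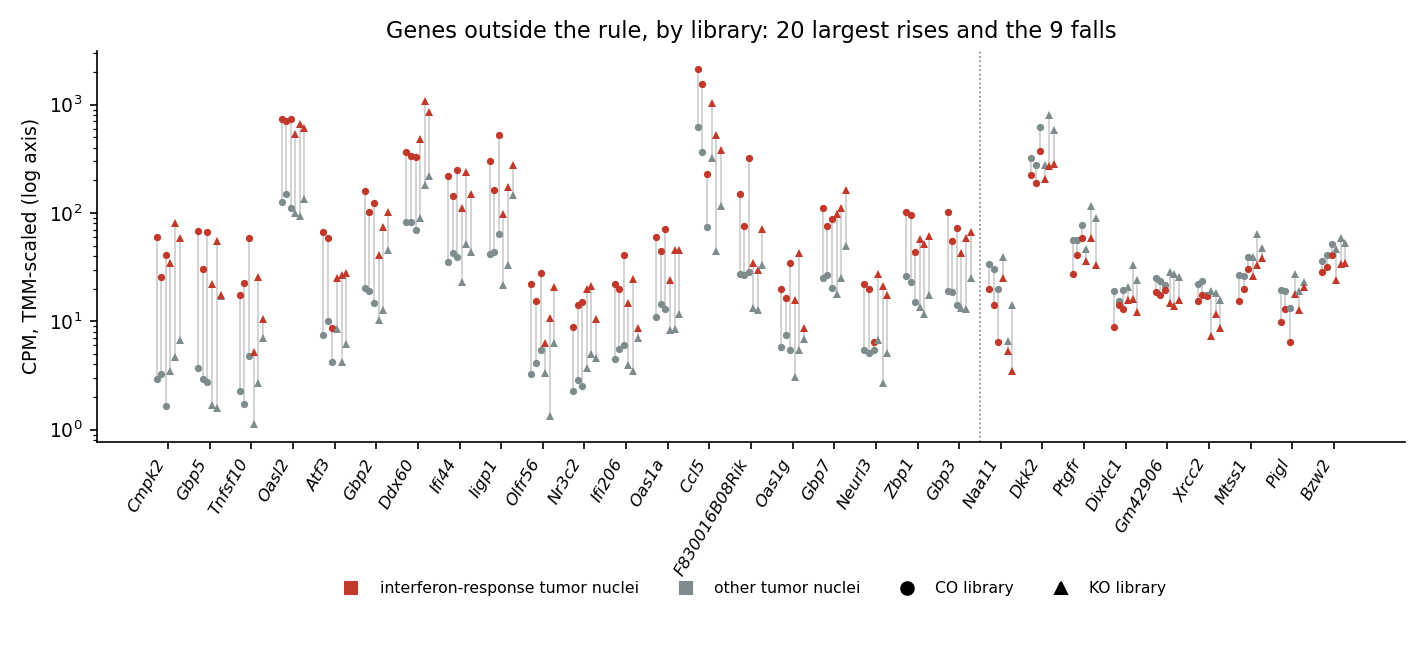
CPM (TMM-scaled, log axis) in each library for the 20 genes outside the selection with the largest rises and the 9 with falls that met the naming rule, in interferon-response and other tumor nuclei. Cmpk2, at the left, is separated in every library (log2 fold change 3.72), whereas the falls are shallow, with Naa11 the largest at −0.88.

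Antigen presentation changed in part. Of 21 tested genes of the MHC class I pathway 7 were called higher and none lower (median 0.33). Cd274 (PD-L1), the ligand that restrains T cells through PD-1, was at 133, 142 and 129.6 CPM in CO and 92.3, 182 and 115 CPM in KO. Other tumor nuclei had 34.2, 37.2 and 25.7 (CO) and 32.6, 35.4 and 57.9 (KO) CPM, with no overlap (log2 fold change 1.86 ± 0.12, adjusted p 7.12e-13). The immunoproteasome subunit Psmb10 and the proteasome activators Psme2 and Psme1 rose by 1.13, 0.69 and 0.63, the peptide-loading protein Tapbp by 0.80, H2-T22 by 0.74 and Nlrc5, the activator of class I genes, by 0.64. The class I heavy chain H2-K1 was at 3672, 3013 and 1632 CPM in CO and 3303, 861 and 1302 CPM in KO, against 3497, 2884 and 1567 (CO) and 3017, 891 and 1274 (KO) CPM. Its log2 fold change was 0.05 ± 0.04 (adjusted p 0.614) and that of its light chain B2m 0.07 ± 0.04 (adjusted p 0.475), while levels differed several-fold between libraries in both populations. The peptide transporter Tap1 had an adjusted p of 0.0186 but a log2 fold change of 0.33, under the limit.

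Of 25 tested chemokines and NF-kB targets 7 were called higher (median 0.38). Ccl5, a chemokine for T cells and monocytes, was at 2155, 1540.5 and 227 CPM in CO and 1032, 526 and 379 CPM in KO, against 618, 365 and 73.6 (CO) and 323, 44.3 and 117 (KO) CPM. It was higher in 6 of 6 libraries (log2 fold change 2.07 ± 0.14), although the interferon-response nuclei of CO replicate 3 stood below the other tumor nuclei of CO replicates 1 and 2 and of KO replicate 1. The adhesion molecule Vcam1, the monocyte chemokines Ccl2 and Ccl7, Il15, which sustains natural killer cells, its receptor chain Il15ra and the adaptor Traf1 rose by 1.56, 1.31, 1.04, 1.01, 0.79 and 0.65. For Ccl2 18.1% of the counts came from 1 nucleus.

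Among 19 tested cell death genes, Tnfsf10 (TRAIL), the ligand of death receptors, Daxx and the necroptosis effector Mlkl were called higher, with a list median of 0.17. Tnfsf10 was at 17.6, 22.4 and 58.3 CPM in CO and 5.25, 25.6 and 10.4 CPM in KO, against 2.26, 1.71 and 4.74 (CO) and 1.13, 2.67 and 7.03 (KO) CPM, and was higher in every library, with the lowest value in KO replicate 1 (log2 fold change 2.85 ± 0.31). It was tested only through its level in the interferon-response nuclei. Daxx and Mlkl rose by 1.49 and 0.67. Of 23 tested immediate-early and stress genes Atf3, Ppp1r15a, Zfp36 and Dusp1 were called, by 2.38, 1.03, 0.99 and 0.81, and the list median was 0.23. For Atf3, a stress-induced transcription factor, 22.3% of the counts lay in 1 nucleus. Of 18 tested p53 targets Bbc3 was called (0.63), and of 12 genes of other tumor states Gpm6b (0.68).

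None of the tested genes on the S phase, G2/M and glycolysis lists was called. At an unadjusted p under 0.05, 9.12% of all tested genes were higher and 8.27% lower. Among 28 S phase genes the median log2 fold change was −0.06, and at that unadjusted p there was 1 higher and 4 lower (14.3%). Among 28 G2/M genes it was −0.19, with 24 negative, none higher and 12 lower (42.9%) at that p. The 14 tested genes of lactate handling and glycolysis had a median of −0.07, with 2 higher and 2 lower at that p. DESeq2 called none of these genes either, and had 9 of the G2/M genes lower at that p, against 3.85% of all tested genes.

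Markers of other cell types were also counted. Of 18 tested macrophage markers Slfn4, itself interferon-induced, was called (1.24), and the list summed to 323 to 1005 unscaled CPM in the interferon-response nuclei, 461 to 932 in the other tumor nuclei and 10372 to 12762 in macrophage nuclei. Of 5 tested endothelial markers Cdh5 was called (1.35), with 29.8% of its counts in 1 nucleus of CO replicate 3. At an unadjusted p under 0.05, 3 of the 5 were higher and none lower by edgeR (list median 0.86), and 1 was higher by DESeq2. At least 2 of the 5 passed the filter only through the interferon-response nuclei. Of the 18 macrophage markers 4 were higher and 1 lower at that p by edgeR, against 9.12% and 8.27% of all tested genes. The 12 T and natural killer cell markers summed to 3.91 to 55.6 unscaled CPM in the interferon-response nuclei and 16.6 to 72.8 in the others. None of 1 tested T cell marker, 3 dendritic and 3 fibroblast markers was called, and none of them had an unadjusted p under 0.05 for a rise. The 8 fibroblast markers summed to 520.0 to 1489 unscaled CPM in the interferon-response nuclei, 566 to 1248 in the other tumor nuclei and 121 to 283 in macrophage nuclei, and implanted cells and host stroma cannot be told apart by these counts. No neutrophil or lung epithelial marker had enough counts to test. The part of such nuclei in the result was not tested beyond the fit to nuclei with 0 macrophage counts, in which 2 of 117 named genes lost their call.

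**Figure D3:**
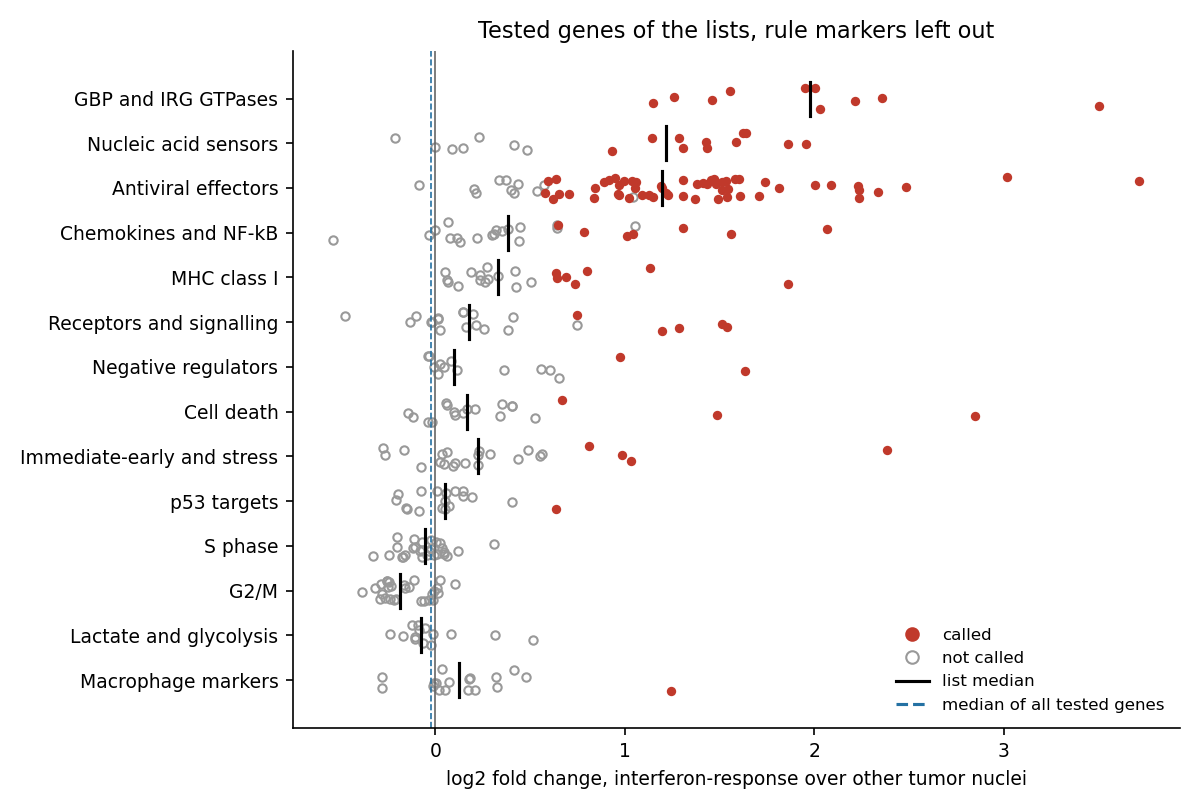
Log2 fold change of each tested gene of the lists, interferon-response over other tumor nuclei, 1 point per gene with the list median, markers left out. The GTPases (median 1.98), sensors (1.22) and antiviral effectors (1.20) lie well to the right, while S phase genes (−0.06) lie about the line at 0 and 24 of 28 G2/M genes (−0.19) lie to its left.

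The 20 genes with the largest rises included several outside the interferon lists. Nr3c2, the mineralocorticoid receptor, was at 8.81, 14.1 and 15.1 CPM in CO and 19.9, 21.3 and 10.4 CPM in KO, against 2.26, 2.86 and 2.55 (CO) and 3.70, 5.02 and 4.54 (KO) CPM, with no overlap (log2 fold change 2.11 ± 0.26). It passed the low-count filter only through the interferon-response nuclei. Neurl3, a ubiquitin ligase, rose by 2.00 and Ifi206 by 2.09. Olfr56 rose by 2.12, but its locus overlaps interferon-induced GTPase genes, so reads could come from them.

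Further genes on no list were chosen after their values were seen, for their size and separation. Ppm1l, a phosphatase of stress kinase signaling, was at 848, 889.7 and 937 CPM in CO and 633, 1779 and 1137 CPM in KO, against 334, 292 and 467 (CO) and 240.4, 519 and 416 (KO) CPM, with no overlap (log2 fold change 1.44 ± 0.07, adjusted p 1.81e-16). Rnf213, a large ubiquitin ligase, had 671 ± 142 CPM against 243 ± 31.9 CPM (log2 fold change 1.44 ± 0.07), and Plagl1, a zinc finger transcription factor, 179 ± 46.1 against 57.3 ± 7.89 CPM (1.65 ± 0.08). Has2, which makes hyaluronan, rose by 1.74, the alarmin Il33 by 1.23, the DNA damage kinase Atm by 1.08, the cyclin Ccnd3 by 1.11, the receptor phosphatase Ptprj by 1.06 and the prostaglandin synthase Ptgs2 by 0.78. Each of these was higher in 6 of 6 libraries.

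Falls were few, and DESeq2 called 3 genes lower. Of the 22 genes called lower by edgeR, whose log2 fold changes reached −2.12 (Gm4869) and −1.90 (Dolpp1), 9 met the rule of at least 60 counts and the same direction in 6 of 6 libraries. Dkk2, a secreted Wnt inhibitor, was at 225, 189 and 376 CPM in CO and 208, 271 and 285 CPM in KO, against 322, 276 and 623 (CO) and 278, 805 and 585 (KO) CPM in the other tumor nuclei. It was lower in every library while the ranges overlapped (log2 fold change −0.83 ± 0.09, adjusted p 1.4e-07). Naa11, an acetyltransferase, the prostaglandin receptor Ptgfr and Dixdc1, of the Wnt pathway, fell by 0.88, 0.79 and 0.72 on the log2 scale. Gm42906, Xrcc2, Mtss1, Pigl and Bzw2 had values from −0.63 to −0.58.

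The genes called higher lay close together on the chromosomes. Of 283 with a position 95 (33.6%) had another within 100 kb, in 33 runs, whereas 656 of all 11262 tested genes (5.82%) had a called-higher neighbor. These counts include the markers, whose rise the selection fixed, and without them 84 of 276 (30.4%) lay in 29 runs, against 5.73% of the other tested genes. On chromosome 1, from 173468485 to 174031810 of GRCm38, all 9 tested genes were called and all were Ifi200 genes. On chromosome 19, from 34492318 to 34650009, all 6 tested genes were called, namely Lipa, Ifit2, Ifit3, Ifit1bl1, Ifit3b and Ifit1, but Ifit3, Ifit3b and Ifit1 are markers. A run of 6 of 6 Trim genes lay on chromosome 7, 5 of 5 Oas genes on chromosome 5, 4 of 4 Gbp genes on chromosome 3 and Parp14, Dtx3l and Parp9 on chromosome 16. On chromosome 14 Psme1, Psme2 and Irf9 were called and Rnf31 between them was not. Many of these neighbors are similar in sequence or overlap and could share reads.

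The summed antiviral effectors and GTPases followed the marker share through all tumor nuclei, whereas MHC class I and the lists outside the interferon response did not fall step by step. Tumor nuclei were ranked within each library by marker share and cut into 7 ranges, and counts were summed without the markers. The median over libraries of the summed antiviral effectors fell from 12853 unscaled CPM in the top 2% to 9754, 8287, 6549, 5086, 4245 and 3801 in the ranges ending at 4%, 8%, 16%, 32%, 64% and 100%. It fell at every step in 5 of 6 libraries, and the top range was 3.48 times the bottom one (range 2.73 to 4.95). The GTPases were 9.04 times as high at the top (3.53 to 31.1), the sensors 1.95, the chemokines 2.22 and the signaling genes 1.75 times. These fell at every step in 4, 4, 2 and 3 of the 6 libraries. MHC class I genes were 1.27 times as high at the top and immediate-early genes 1.29 times, each in 6 of 6 libraries but at every step in none. Below the top 8% the MHC class I medians were uneven, at 7499, 7561, 7564 and 7176 unscaled CPM. S phase genes were at 0.910 times and G2/M genes at 0.989 times their bottom level. Macrophage markers were at 0.819 times, lower at the top in 6 of 6 libraries.

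**Figure D4:**
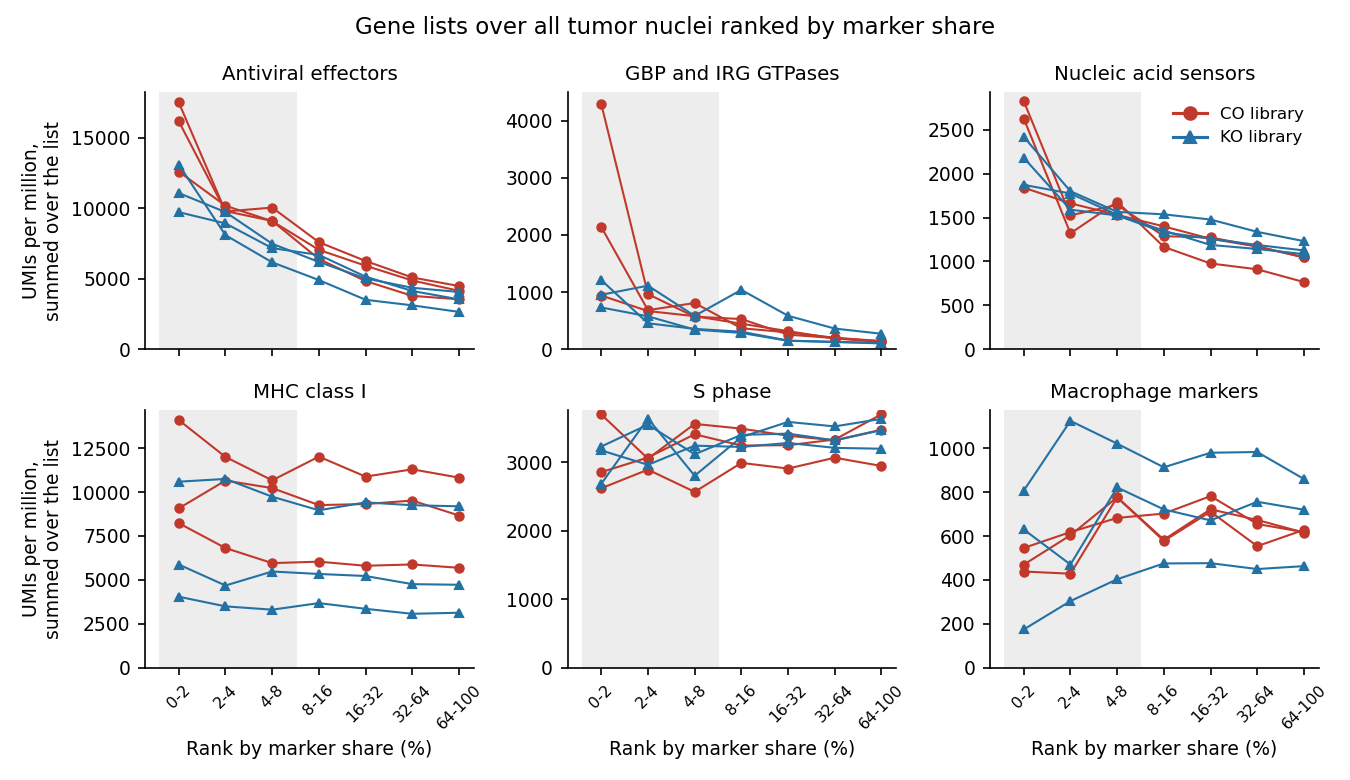
Summed unscaled CPM of the gene lists, markers left out, over all tumor nuclei ranked by marker share (x axis, percent rank), 1 line per library, with the selected top 8% shaded. The antiviral effectors fall from a median of 12853 in the top 2% to 3801 in the lowest range with no step at the edge of the selection.

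Macrophage nuclei of the same libraries, 1224 in all, gave a second reference. They were chosen by the 5 macrophage genes, with tumor genes under 0.5% of UMIs. They were not ranked by marker share, whereas the interferon-response nuclei were the top of such a ranking of tumor nuclei. The part of this selection in the differences below was not tested. Macrophage nuclei were also shallower, with library medians of 1842 to 2443.5 UMIs against 4074 to 8992 in the interferon-response nuclei. Their median mitochondrial shares were 0.258% to 0.738%, against 3.85% to 9.24%. Of 8219 genes tested 3987 (48.5%) differed between them and the interferon-response nuclei, 2087 higher in the interferon-response nuclei (25.4%) and 1900 lower (23.1%), while 2233 (27.2%) were higher and 2089 lower in 6 of 6 libraries and 2597 (31.6%) had ranges without overlap. At least 1014 of the 8219 genes passed the low-count filter only through the interferon-response nuclei, where they are high. Among them were at least 4 antiviral effectors and 1 GTPase. Genes that passed only through the macrophage nuclei were not counted. Of 67 tested antiviral effectors 14 were higher and 28 lower in the interferon-response nuclei, with a median log2 fold change of −0.31, against 0.06 for all genes. Apol9a, Apol9b, Cmpk2 and Isg15 were higher by 3.24, 3.01, 1.73 and 1.61, and Epsti1 was lower (−5.19). None of 21 tested signaling genes was higher and 14 were lower, among them Ifnar1 (−2.45), Ifnar2 (−2.93) and Irf5 (−3.73). Of 20 sensors 2 were higher and 9 lower. Among 22 chemokines and NF-kB targets 5 were higher and 13 lower, with Csf1 (2.05), Ccl5 (1.73) and Ccl2 (1.13) on the higher side, and of 10 GTPases 3 were higher and 4 lower, with Gbp2 at 1.76.

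The last comparison asked whether the interferon-response nuclei differed between MCT2 KO and MCT2 CO hosts. The targeted gene gave no check of the labels in the tumor nuclei, which the rule takes to be implanted cells. Slc16a7 had 0, 2 and 0 counts in the interferon-response nuclei of CO and 4, 2 and 2 in those of KO. Over all kept nuclei the CO libraries had 8.57, 11.8 and 22.01 unscaled CPM and the KO libraries 16.4, 7.25 and 31.5. These were not lower in the KO libraries as a group, although KO replicate 2 had the lowest value. In the macrophage nuclei, where the gene was better counted, CO had 91.6, 99.6 and 204 and KO 162, 156 and 181 unscaled CPM. The KO values lay inside the CO range. The counts are per gene and do not resolve the deleted exons.

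Since the share of nuclei chosen is fixed at 8%, groups were compared by the share of tumor nuclei with at least 2 marker counts after each nucleus was thinned to 1500 UMIs. CO libraries had 23.7%, 25.5% and 11.9% and KO libraries 21.5%, 16.3% and 24.2%, so the groups overlapped and CO replicate 3 was lowest. Group means were 20.4 ± 7.40% (CO) and 20.7 ± 4.04% (KO) with SD over 3 libraries (difference 0.297 percentage points, p = 0.9, exact permutation test, two-sided, smallest possible p 0.1). Unthinned shares differed by 4.11 percentage points (p = 0.7, same exact test). The markers summed over all tumor nuclei to 992, 1019 and 465 unscaled CPM in CO and 796, 623 and 777 in KO. Group means were 825 ± 313 and 732 ± 94.8 (difference −93.5, p = 0.6, same exact test), again with CO replicate 3 lowest, and without that library the difference was −274 (exact p = 0.1, the smallest possible).

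Within the interferon-response nuclei 0 of 9264 tested genes (0%) were called between KO and CO by edgeR. At an unadjusted p under 0.05 there were 601, DESeq2 called 0 and had 386 at that p, and 1154 genes (12.5%) had groups that did not overlap. The smallest adjusted p was 0.66. Without KO replicate 1, 922 genes were called, 253 higher and 669 lower. Plcl1, a phospholipase-like protein, was at 45.2, 72.2 and 61.6 CPM in CO and 109.6, 157 and 169 CPM in KO (log2 fold change 1.28 ± 0.27). The marker Ifit3b was at 227, 259 and 172 CPM in CO and 115, 60.8 and 91.3 CPM in KO, without overlap (log2 fold change −1.31 ± 0.28). Its own counts helped to choose these nuclei, and the mix of markers differed between libraries, so this fit is no test of Ifit3b. The next by p were Gpc6, Lpin1, Pfkfb1 and Nxpe4 on the KO side (1.05, 1.53, 1.81, 1.04) and Col18a1, Pqbp1, Gas1 and the T cell gene Skap1 on the CO side (−1.06, −2.19, −0.98, −2.10). The adjusted p of each was 0.66.

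No interferon list held a called gene in this comparison. List medians of the log2 fold change, KO over CO, were −0.29 for 61 antiviral effectors, −0.58 for 9 GTPases, −0.60 for 20 MHC class I genes and −0.63 for 19 immediate-early genes, against −0.04 for all genes. At an unadjusted p under 0.05 there were 1 higher and 7 lower antiviral effectors and 6 lower MHC class I genes, while 3.22% of all tested genes were higher and 3.27% lower. Of the 9 GTPases 3 were lower (33.3%) and none higher at that p, and none of the 19 immediate-early genes reached it. The MHC class I sum was 11818, 10080.3 and 6655 unscaled CPM in the interferon-response nuclei of CO and 10167, 3528 and 5318 in those of KO. In the other tumor nuclei CO libraries had 11103, 9157 and 5826 and KO libraries 9232, 3179 and 4862, the same order of libraries. CO replicate 3 and KO replicates 2 and 3, which were lowest, were also the libraries with median mitochondrial shares of 6.04%, 5.14% and 3.85% in these nuclei, against 9.24%, 8.61% and 8.67% in the other libraries. The part of this in the group difference was not tested.

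**Figure D5:**
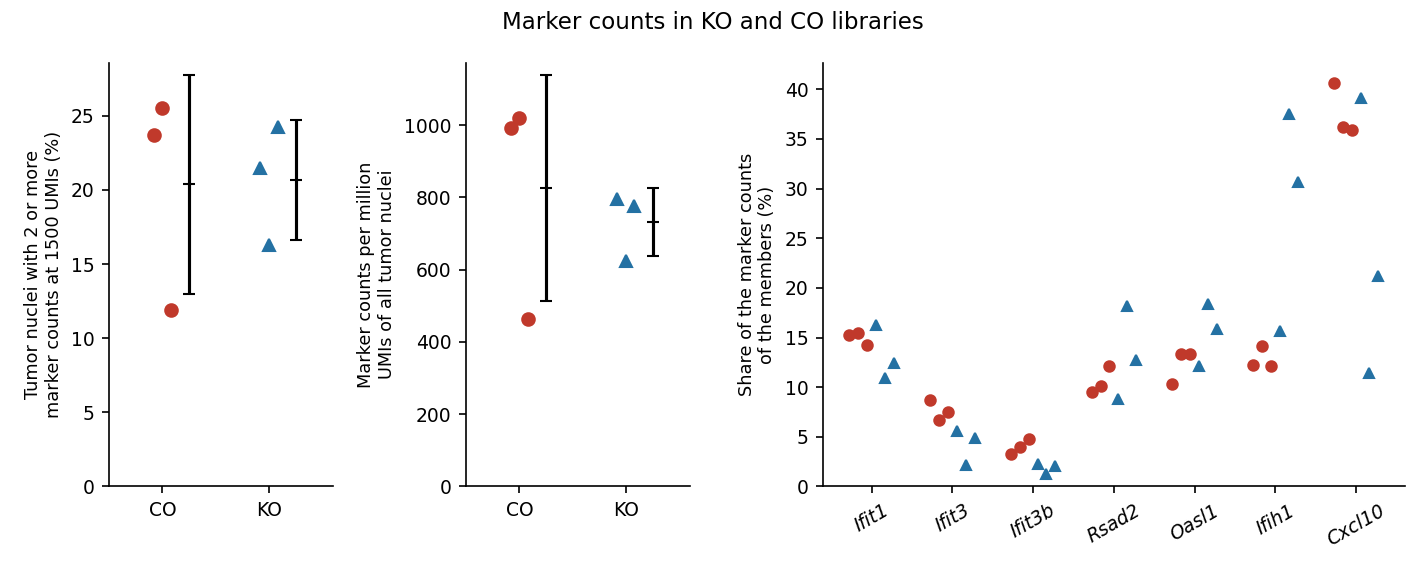
Share of tumor nuclei with at least 2 marker counts at 1500 UMIs and summed marker level in unscaled CPM, by group with 1 point per library, and the share of each marker in the marker counts of the interferon-response nuclei. Shares in CO (mean 20.4%) and KO (mean 20.7%) overlap, and in the interferon-response nuclei Cxcl10 and Ifih1 set KO replicates 2 and 3 apart.

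Whether the step from other tumor nuclei to interferon-response nuclei had another size in KO than in CO was tested as an interaction, and 2 of 11802 genes (0.0169%) were called, Zfp521 and Brinp3. Both rested on few nuclei, and no gene of the interferon lists was called. The median interaction on the log2 scale was −0.15 for 73 antiviral effectors and −0.85 for 11 GTPases, 10 of them negative, against −0.02 for all genes. Plcl1, at 77.7, 90.2 and 131 CPM in the other tumor nuclei of CO and 101, 150.004 and 160.4 CPM in those of KO, had an interaction of 0.78 ± 0.18 (adjusted p 0.181).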

How the data were processed

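Single-nucleus RNA of 6 TC1 tumors was counted by the authors with Cell Ranger (3.0.2 in the submitters' processing notes, 3.1.0 in the matrix headers) against GRCm38, and Seurat 5.2.1 is also named there. The deposited values are UMI counts per gene and nucleus, and each is a whole number, so no correction for free RNA can be seen. Groups came from the sample titles. Members and gene lists were chosen with earlier results of these data known, and the libraries are labelled replicates. Counts were summed per library and population and tested with edgeR 4.0.16 (quasi-likelihood F-test, TMM, filterByExpr, R 4.3.3), called at adjusted p of at most 0.05 and log2 fold change of at least 0.58. DESeq2 1.42.0 was an alternative, as were other scaling, no filter, left-out libraries, other shares chosen and thinned counts. SE is the log2 fold change over the root of F. The fits were tested on simulated data. Single values were compared by exact permutation (scipy 1.17.1).

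Named genes were the 20 largest rises and 10 largest falls among called genes with at least 60 counts and 1 direction in 6 of 6 libraries, and the called genes of the interferon lists, some of which are not reported here. Between groups they were the 5 with the smallest p each way, and for the interaction the called genes and the 3 with the smallest p each way. Doublets were kept in the main fits. Scrublet (scanpy 1.11.5) marked 11 nuclei on its own, too few, so the highest-scoring 0.8% per 1000 barcodes were left out as an alternative, 13 of them interferon-response nuclei. Between replicates, summed counts differed by more than sampling noise (chi-square per degree of freedom 2.51 to 18.9). The biological coefficient of variation was 6.65% in the fit of the populations with library as a block. It was 27.2% between libraries of a group in the fit of KO against CO. Gene positions came from GENCODE vM21 and promoters from RefSeq, whose strand matched in 8120 of 8952 genes (90.7%) and was opposite in 0.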

Additional observations from a re-analysis of the deposited data

Results flagged for a closer look

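The difference between interferon-response and other tumor nuclei was not the same in KO and CO for 2 genes, by the edgeR test of the interaction with library as a block. For Brinp3 the interaction was −4.88 ± 0.88 on the log2 scale (adjusted p 0.0249). The interferon-response nuclei had 0, 3.52 and 113 CPM in CO and 0, 1.07 and 3.46 CPM in KO, and the other tumor nuclei 0.521, 0.571 and 7.83 (CO) and 0.964, 3.62 and 8.20 (KO) CPM. Of the 53 counts in CO replicate 3, 52 came from 1 nucleus. For Zfp521, a zinc finger protein, the interaction was −4.80 ± 0.80 (adjusted p 0.0114). The interferon-response nuclei had 5.50, 9.40 and 34.2 CPM in CO and 0, 3.20 and 0 CPM in KO, and the other tumor nuclei 1.56, 2.10 and 6.01 (CO) and 1.85, 6.99 and 17.3 (KO) CPM. In CO replicate 3 its 16 counts lay in 4 nuclei, 10 of them in 1. Without CO replicate 3, 2 genes were called and neither was Brinp3 or Zfp521, and without KO replicate 1 or KO replicate 3 no gene was called. Among the genes with the next smallest p, Cemip had 1.99 ± 0.43, Col12a1 0.85 ± 0.20 and Igfbp7 −2.24 ± 0.44, none of them called.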

How the results depend on the processing

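The 306 genes called between interferon-response and other tumor nuclei became 137, all higher, with no library block and between 280 and 330 when 1 library was left out. Against macrophage nuclei 3987 genes became 2456 with counts thinned to 1500 UMIs, and 3876 to 4247 with 1 library left out. Of the 117 genes named against other tumor nuclei 47 lost their call under at least 1 alternative and none reversed, 43 with no library block and 18 with the top 16% chosen. Between KO and CO 1 gene was called without the low-count filter and 0 to 922 with 1 library left out, where 922 came without KO replicate 1. The interaction called 0 genes with DESeq2 or the top 4%, 1 with doublets removed, 4 with the top 16%, 5 with 0 macrophage counts, 30 without the filter and 0 to 27 with 1 library left out. The difference in thinned shares was −0.0544 points with 0 macrophage counts, and ran from −3.94 (without CO replicate 3) to 2.88 with 1 library left out. It was −0.112 and −1.49 without KO replicates 1 and 3. The difference in summed markers ran from −274 (without CO replicate 3, exact p 0.1, the smallest possible) to 3.41 (without CO replicate 2), and the log2 ratio of UMIs from −0.0689 to 0.0133, positive at 0.00394, 0.0133 and 0.00798 without CO replicates 1, 2 and 3. The causes were not tested.

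Whether replicate numbers pair the libraries was not settled. Same-number correlations for replicates 1, 2 and 3 were 0.418, −0.180 and 0.143, and the largest with another number were −0.149, 0.182 and 0.405. With 3 libraries per group these values depend on each other and cannot decide it. With a replicate block 0 genes were called between KO and CO (966 at an unadjusted p under 0.05) and 3 in the interaction, and the differences in shares and markers stayed 0.297 and −93.5 (exact p 1 and 0.75, smallest possible 0.25). With 57 nuclei in each of CO replicate 3 and KO replicate 3, low genes were not resolved.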
